A study of Mus musculus with 24 samples.

Results

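The genes of the interferon, IL-12, IL-18, IL-33 and IL-23 receptors were followed in stimulated mouse CD4+ T cells. The group holds 10 genes, chosen by name: Ifngr1, Ifngr2, Ifnar1, Ifnar2, Il12rb1, Il12rb2, Il23r, Il18r1, Il18rap and Il1rl1. These are 10 of the 54446 gene identifiers that were counted. All 10 had counts in each of the 24 libraries and passed the filter on low counts. The cells were CD4+ T cells from spleens of mice on a C57BL6 background. They came from 3 wild-type mice (WT, mice 1, 3 and 4) and 3 mice lacking Aim2, which encodes a cytosolic sensor of DNA (Aim2-/-, mice 1, 2 and 4). Cells of each mouse were sequenced without stimulation (0 h, the control) and at 3, 6 and 24 h of culture with anti-CD3 and anti-CD28, a stimulus that mimics antigen and costimulation. This gives 8 groups of 3 libraries, 1 library per mouse and time. No library came from cells cultured for 3, 6 or 24 h without the stimulus. Effects of stimulation and of time in culture therefore cannot be told apart. The Aim2-/- line is deficient in Aim2 in all its cells, not in T cells alone, and ages and sexes of single mice were not used here.

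These receptors let a CD4+ T cell read the cytokines that steer its differentiation. IFN-γ binds a receptor made of Ifngr1, the ligand-binding chain, and Ifngr2, the chain that completes signalling, and type I interferons bind Ifnar1 with Ifnar2. IL-12 and IL-23 share the chain Il12rb1, paired with Il12rb2 for IL-12 and with Il23r for IL-23, and signal through STAT4 and STAT3 respectively, while IL-18 and IL-33 use MyD88-coupled receptors of the IL-1 receptor family. Il18r1 and Il18rap form the IL-18 receptor, and Il1rl1, also called ST2, is the IL-33 receptor found on Th2 cells, on part of the regulatory T cells, and on mast cells and basophils.

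Several of the genes are neighbours in the genome (GRCm38). On chromosome 1 the plus strand carries Il1rl1 (chr1:40429570-40465415), Il18r1 (chr1:40465552-40500854) and Il18rap (chr1:40515362-40551705) in this order. Only 136 bases separate Il1rl1 from Il18r1, and 14507 bases separate Il18r1 from Il18rap. On chromosome 6 the minus strand carries Il12rb2 (chr6:67291318-67376188) and Il23r (chr6:67422932-67491855), 46743 bases apart. On chromosome 16 the plus strand carries Ifnar2 (chr16:91372783-91405589), Ifnar1 (chr16:91485238-91507441) and Ifngr2 (chr16:91547072-91565623), with the IL-10 receptor gene Il10rb between the first pair. Ifngr1 (chr10:19591949-19610229) and Il12rb1 (chr8:70808449-70821424) stand alone. Aim2 itself lies on chromosome 1, 132.8 Mb from Il18rap.

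The sequences before the starts of the clustered IL-1 family genes and of the pair on chromosome 6 are shown as examples of neighbouring genes. All members but Il12rb1 fell at 24 h, as described further on. These include the chromosome 16 neighbours, whose sequences are not shown. The sequences below are from RefSeq (build GRCm38.p6), written 5′ to 3′ on the strand of the gene. They hold the 250 bases before the first listed start. For Il18r1 only the 136 bases outside exons of Il1rl1 are given, which is the whole gap between these genes. Capitals mark a match to a searched motif.
Il1rl1, chr1:40429320-40429569, plus strand: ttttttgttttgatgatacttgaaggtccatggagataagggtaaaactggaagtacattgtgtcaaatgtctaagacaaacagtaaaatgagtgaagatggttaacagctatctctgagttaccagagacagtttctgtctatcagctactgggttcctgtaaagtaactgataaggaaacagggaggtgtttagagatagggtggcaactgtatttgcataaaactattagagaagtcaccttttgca
Il18r1, chr1:40465416-40465551, plus strand: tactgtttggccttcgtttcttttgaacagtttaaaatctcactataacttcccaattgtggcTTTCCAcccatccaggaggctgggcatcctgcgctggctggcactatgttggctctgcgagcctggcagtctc
Il18rap, chr1:40515112-40515361, plus strand: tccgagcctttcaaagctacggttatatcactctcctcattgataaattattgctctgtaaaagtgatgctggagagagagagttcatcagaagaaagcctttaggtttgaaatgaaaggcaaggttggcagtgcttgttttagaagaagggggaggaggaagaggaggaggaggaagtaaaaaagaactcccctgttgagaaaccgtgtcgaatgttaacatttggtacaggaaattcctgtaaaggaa
Il12rb2, chr6:67376189-67376438, minus strand: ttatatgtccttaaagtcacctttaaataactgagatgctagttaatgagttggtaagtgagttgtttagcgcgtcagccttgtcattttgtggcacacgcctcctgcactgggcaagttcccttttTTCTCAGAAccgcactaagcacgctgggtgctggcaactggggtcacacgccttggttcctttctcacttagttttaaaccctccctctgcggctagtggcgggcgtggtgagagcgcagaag
Il23r, chr6:67491856-67492105, minus strand: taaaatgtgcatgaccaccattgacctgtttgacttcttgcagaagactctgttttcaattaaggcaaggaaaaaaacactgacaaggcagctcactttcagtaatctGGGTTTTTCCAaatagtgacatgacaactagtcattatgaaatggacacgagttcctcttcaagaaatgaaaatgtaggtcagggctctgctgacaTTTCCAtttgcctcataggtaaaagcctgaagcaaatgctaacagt

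The motifs were searched on both strands as the letters TTCNNNGAA (GAS), GAAANNGAA (ISRE core), TGANTCA (AP-1), TGGAAA (NFAT core), AGGTGTGA (T-box), and for NF-kB as GGG and CC with any 5 bases between them. Of 32851 promoters in the table, 7.02% held the GAS letters, 7.13% the ISRE core, 6.75% AP-1, 18.6% the NFAT core, 45.8% NF-kB and 1.12% T-box within 250 bases before the start. The table listed 12 starts for 9 of the 10 genes, and Il12rb1 was not among them. GAS letters stood before the starts of Ifnar2 and Il12rb2 and before the third listed start of Il18r1. The NFAT core stood before Il18r1 and Il23r, and NF-kB letters before Ifngr1, Ifngr2 (4 matches, of which 2 overlap each other), Il23r and the third start of Il18r1. The capitals in Il23r are the NFAT core and an NF-kB match that overlap each other, followed by a second NFAT core. In the windows of Il1rl1 and Il18rap none of the 6 motifs was matched. A match describes letters and is not a binding site, and these windows hold only a small part of a gene's regulatory sequence.

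Library totals lay between 19715161 and 21627018 counts. Levels are given in CPM, the counts of a gene per 1000000 counts of the TMM-scaled library. The 6 markers of CD4+ T cells summed to between 3560 and 4021 CPM at 0 h. At 24 h their sum was lower, between 2684 and 2806 CPM in WT and between 2874 and 2992 CPM in Aim2-/- libraries. The 2 markers of CD8 T cells summed to at most 15.6 CPM in any library, so the libraries carried the markers of their label. The 5 activation markers (Il2ra, Cd69, Myc, Il2 and Cd44) summed to between 611 and 884 CPM at 0 h and between 1640 and 2572 CPM at 6 h. The 5 markers of resting T cells summed to between 3131 and 5843 CPM at 0 h and between 429 and 580 CPM at 24 h. The targeted gene did not separate all mice by their labels. At 0 h Aim2 stood at 75.0 and 67.5 CPM in WT mice 3 and 4, at 21.5 CPM in the library labelled WT 1, and between 15.7 and 20.1 CPM in Aim2-/- mice. The same held at 24 h, with 34.0 and 38.6 CPM against 5.57 CPM in the library labelled WT 1 and between 5.28 and 7.15 CPM in Aim2-/- mice. Counts per gene do not show how the gene was disrupted. The labels were kept, and differences of the receptor genes between the genotypes are also given without the mouse labelled WT 1.

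Before stimulation Ifngr1 was the most abundant of the 10 genes. To compare genes with each other, CPM was divided by the length of the longest transcript in kb. On this scale the WT mean at 0 h was 555 CPM per kb for Ifngr1, 96.4 for Ifnar1, 70.9 for Ifngr2, 36.0 for Il18r1, 24.2 for Il12rb2, 16.0 for Ifnar2, 13.4 for Il18rap, 7.13 for Il1rl1, 2.84 for Il12rb1 and 0.787 for Il23r. In this order the WT libraries of Ifnar1 overlapped those of Ifngr2, and those of Il18r1 overlapped those of Il12rb2, while the other neighbours did not overlap. The order was the same in Aim2-/- cells at 0 h, where Ifngr2 overlapped Il18r1, Ifnar2 overlapped Il18rap, and Il18rap overlapped Il1rl1.

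Under stimulation Il12rb1 rose at every time, and the other 9 genes were lower at 24 h than at 0 h in both genotypes. A gene is called here when its adjusted p was under 0.05 in edgeR's quasi-likelihood test with Benjamini-Hochberg adjustment over all 15325 genes tested. In WT cells 5 of the 10 genes were called at 3 h against 0 h, 2 higher and 3 lower, where 32.6% of all genes were called, 16.2% higher and 16.4% lower. At 6 h 5 genes were called, 1 higher and 4 lower, beside 51.1% of all genes (26.4% higher, 24.8% lower). At 24 h all 10 were called, 1 higher and 9 lower, beside 71.4% of all genes, 36.6% higher and 34.8% lower. Aim2-/- cells had 4 genes called at 3 h, 1 higher and 3 lower, beside 30.7% of all genes (16.1% higher, 14.6% lower). They had 5 at 6 h, 1 higher and 4 lower, beside 51.2% (28.5% higher, 22.7% lower). All 10 were called at 24 h, 1 higher and 9 lower, beside 70.3% of all genes (36.8% higher, 33.5% lower). The median log2 fold change of the 10 genes at 24 h was -2.55 in WT and -2.23 in Aim2-/- cells, where the median over all genes tested was -0.01 and 0.03. The comparisons at 3, 6 and 24 h share their 0 h libraries. In bulk RNA a lower level in each cell and fewer cells that carry the transcript cannot be told apart. CPM is also a share of the library, so copies per cell were not measured.

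**Figure D1:**
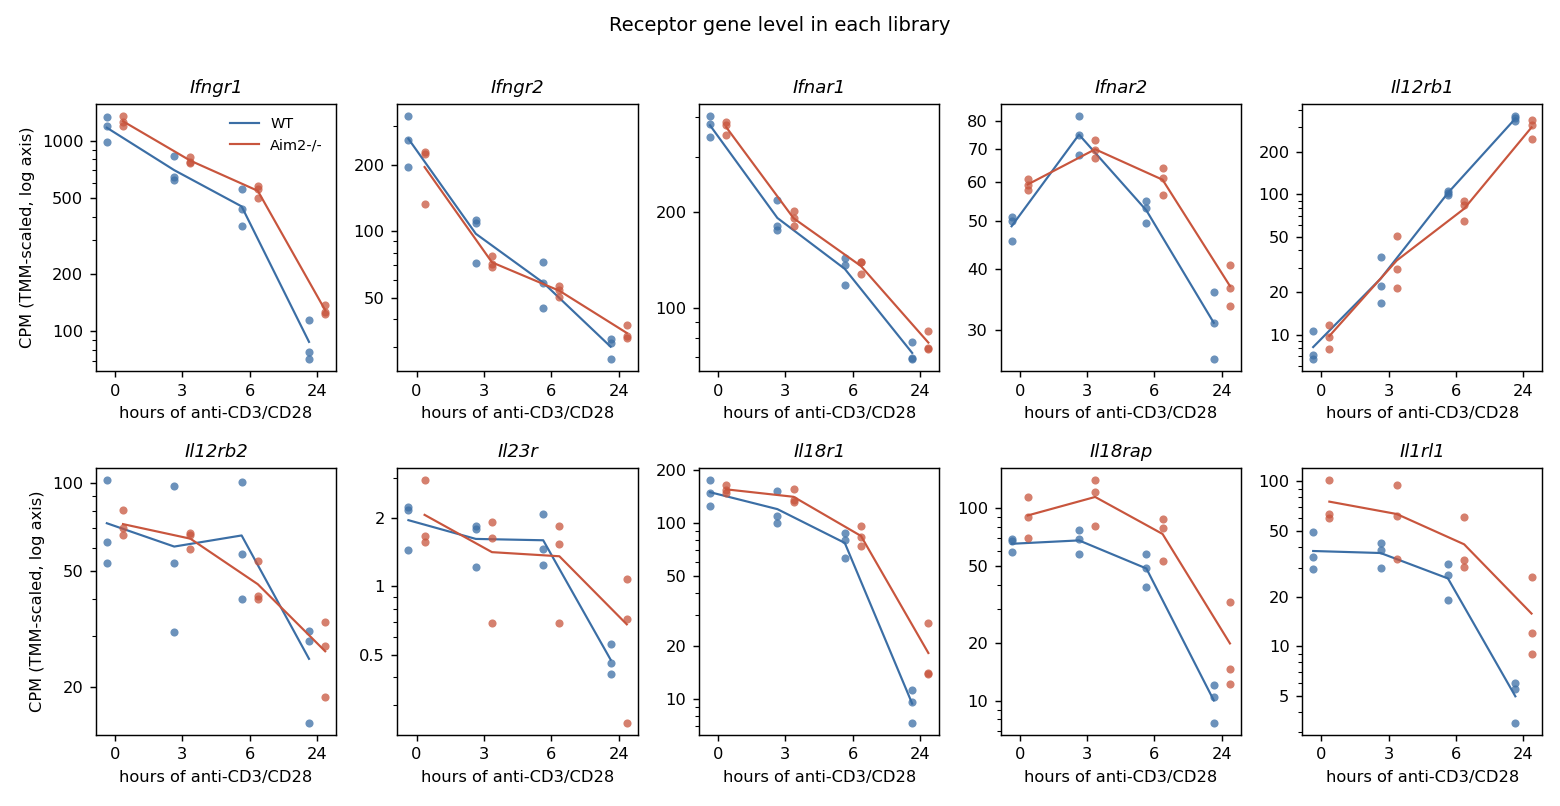
Level of each receptor gene in CPM (log axis, scaled to each panel) against hours of anti-CD3/CD28. Points are libraries, 3 per genotype and time, and lines join the group means. Il12rb1 climbs from at most 11.8 CPM at 0 h to at least 249 CPM at 24 h in all 6 mice, while the other genes end below their 0 h level.

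The successive steps showed when the changes came. From 3 to 6 h 6 genes were called in WT cells, 1 higher and 5 lower, beside 25.7% of all genes (14.2% higher, 11.5% lower). From 6 to 24 h all 10 were called, 1 higher and 9 lower, beside 57.6% (29.6% higher, 28.0% lower). Aim2-/- cells had 4 genes called from 3 to 6 h, 1 higher and 3 lower, beside 23.3% of all genes (13.4% higher, 9.89% lower). They had 8 from 6 to 24 h, 1 higher and 7 lower, beside 54.3% (27.4% higher, 27.0% lower). With each mouse as a block, 8 genes were called from 3 to 6 h in each genotype, while the shares above are those without this block. The WT count from 3 to 6 h was 3 without the 3 h library of WT mouse 4. The Aim2-/- count from 3 to 6 h was 2 without the 3 h library of mouse 1, without the 6 h library of mouse 4, and without mouse 2 or mouse 4 altogether.

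**Figure D2:**
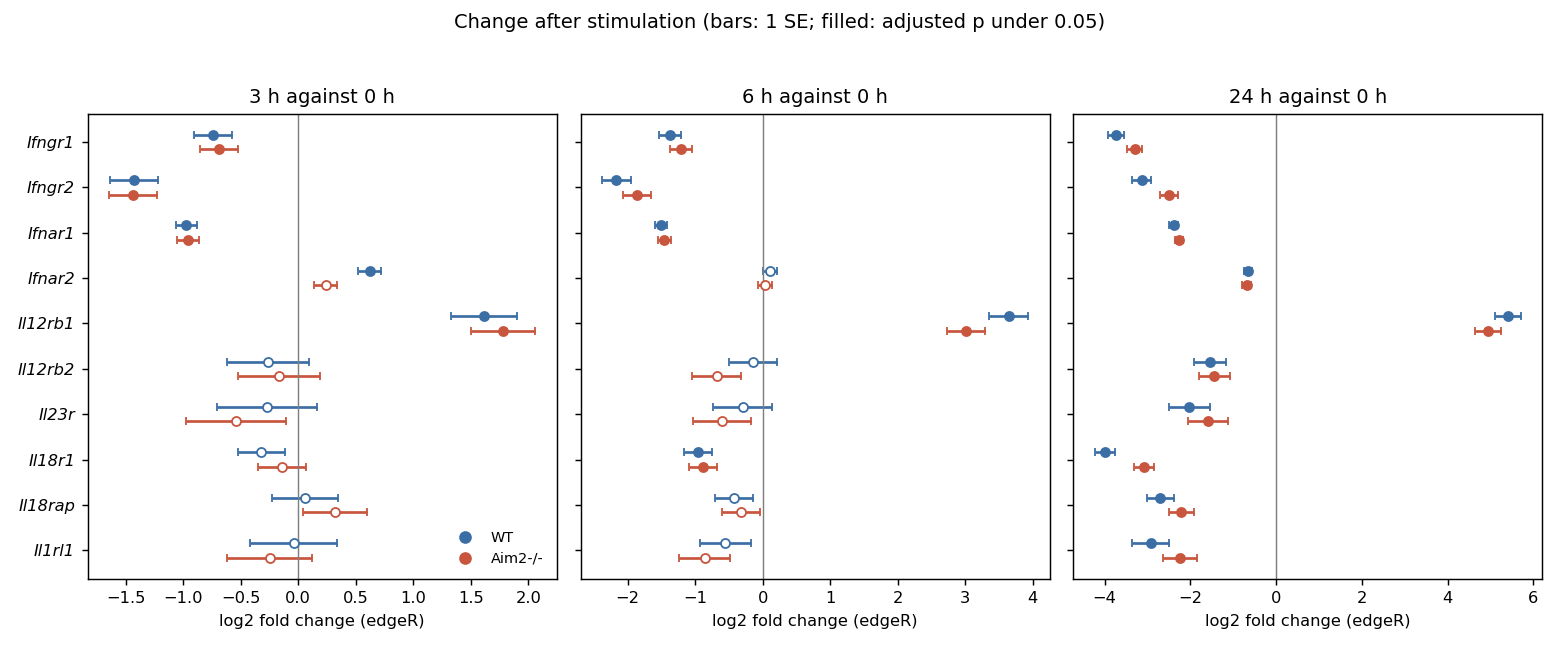
Log2 fold change of each receptor gene at 3, 6 and 24 h against 0 h in WT and Aim2-/- cells, with bars of 1 standard error (edgeR, each panel with its own axis). Filled points were called at adjusted p under 0.05. The interferon receptor genes Ifngr1, Ifngr2 and Ifnar1 were already lower at 3 h. The IL-1 family receptor genes Il18r1, Il18rap and Il1rl1 fell most between 6 and 24 h, the longest step, though Il18r1 was already called lower at 6 h. Ifngr1, Ifnar2, Il12rb2 and Il23r also had their largest fall in this step.

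Both IFN-γ receptor genes fell early and kept falling. Ifngr1 stood at 986, 1194 and 1337 CPM in WT mice 1, 3 and 4 at 0 h, at 625, 648 and 831 CPM at 3 h, at 357, 439 and 560 CPM at 6 h, and at 77.3, 71.4 and 115 CPM at 24 h. No 2 time points overlapped in WT. The log2 fold change against 0 h was -0.74 (SE 0.17, adjusted p = 0.00144) after 3 h, -1.37 (SE 0.17, adjusted p = 6.2e-07) after 6 h and -3.74 (SE 0.18, adjusted p = 3.03e-13) after 24 h. At 24 h this was 13.3-fold lower, leaving 7.50% of the 0 h mean. In Aim2-/- mice 1, 2 and 4 the level went from 1201, 1251 and 1349 CPM at 0 h to 137, 123 and 127 CPM at 24 h. This was 9.83-fold lower (log2 fold change -3.30, SE 0.18, adjusted p = 1.97e-12), with -0.69 (SE 0.16) after 3 h and -1.21 (SE 0.17) after 6 h, both called.

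Ifngr2, which also limits how strongly a T cell answers IFN-γ, had its largest fall in CPM within the first 3 h. WT mice 1, 3 and 4 had 197, 333 and 259 CPM at 0 h, 71.7, 109 and 112 CPM at 3 h, 45.1, 58.1 and 72.3 CPM at 6 h, and 26.3, 31.0 and 32.5 CPM at 24 h. The highest library of 3 h lay below the lowest of 0 h, while 3 and 6 h overlapped. Against 0 h the log2 fold change was -1.43 (SE 0.21, adjusted p = 1.79e-05) after 3 h, -2.17 (SE 0.21) after 6 h and -3.13 (SE 0.22, adjusted p = 6.52e-11) after 24 h. Aim2-/- mice 1, 2 and 4 went from 134, 225 and 228 CPM at 0 h to 68.8, 77.0 and 71.1 CPM at 3 h and 33.4, 32.7 and 37.7 CPM at 24 h. The corresponding changes were -1.44 (SE 0.21) after 3 h, -1.86 (SE 0.21) after 6 h and -2.50 (SE 0.22, adjusted p = 1.79e-09) after 24 h. The step from 3 to 6 h in Aim2-/- cells, -0.43 (SE 0.21), was not called in the unblocked test with all 24 libraries. It was called with mouse as a block at -0.42, and also without a low-count filter and on the compared libraries alone. The WT step of -0.74 (SE 0.21, adjusted p = 0.0118) lost its call in 4 of the fits that left out a library or mouse.

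The type I interferon receptor chains parted from each other. Ifnar1 fell at each time, from 346, 381 and 403 CPM in WT mice 1, 3 and 4 at 0 h to 181, 176 and 218 CPM at 3 h, 137, 118 and 143 CPM at 6 h, and 68.8, 69.1 and 77.9 CPM at 24 h. No 2 times overlapped, and the replicates lay close together. The log2 fold change was -0.97 (SE 0.09, adjusted p = 1.26e-07) after 3 h, -1.51 (SE 0.10) after 6 h and -2.39 (SE 0.10, adjusted p = 3.49e-14) after 24 h, which is 5.24-fold lower. Aim2-/- cells showed -0.96 (SE 0.09), -1.46 (SE 0.10) and -2.26 (SE 0.10, adjusted p = 1.04e-13) at the same times.

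Ifnar2, the chain that binds interferon most tightly, first rose in WT cells. It stood at 45.5, 50.9 and 49.97 CPM in WT mice 1, 3 and 4 at 0 h, at 68.3, 75.0 and 81.9 CPM at 3 h, at 53.1, 49.6 and 55.0 CPM at 6 h, and at 30.9, 26.1 and 35.9 CPM at 24 h. The 3 h libraries lay above all others and the 24 h libraries below all others. Against 0 h the log2 fold change was 0.62 (SE 0.10, adjusted p = 5.11e-05) after 3 h, 0.11 (SE 0.10, adjusted p = 0.389) after 6 h and -0.65 (SE 0.10, adjusted p = 6.1e-06) after 24 h. In Aim2-/- mice 1, 2 and 4 the levels were 61.0, 57.8 and 59.3 CPM at 0 h, 73.1, 70.0 and 67.2 CPM at 3 h, and 40.6, 33.5 and 36.5 CPM at 24 h. The difference at 3 h was 0.24 (SE 0.10, adjusted p = 0.0735), in the same direction in 3 of 3 mice, and it was called at 0.24 with mouse as a block. At 24 h Ifnar2 fell by 0.69 on the log2 scale (SE 0.10, adjusted p = 3.13e-06).

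Il12rb1, the chain shared by the IL-12 and IL-23 receptors, was the only member that rose at every step, in both genotypes. WT mice 1, 3 and 4 had 10.6, 6.72 and 7.20 CPM at 0 h, 35.9, 22.3 and 16.9 CPM at 3 h, 99.3, 105 and 102 CPM at 6 h, and 331, 360 and 346 CPM at 24 h. No 2 times overlapped, and the spread between mice relative to the mean was widest at 3 h. The log2 fold change was 1.61 (SE 0.28, adjusted p = 0.000148) after 3 h, 3.64 (SE 0.29, adjusted p = 2.12e-09) after 6 h and 5.40 (SE 0.31, adjusted p = 2.62e-12) after 24 h, which is 42.3-fold higher. Aim2-/- mice 1, 2 and 4 carried 11.8, 7.97 and 9.64 CPM at 0 h, 21.3, 29.2 and 50.8 CPM at 3 h, 64.0, 89.1 and 83.5 CPM at 6 h, and 249, 338 and 311 CPM at 24 h. There too no 2 times overlapped. The changes were 1.78 (SE 0.28, adjusted p = 5.56e-05), 3.01 (SE 0.28, adjusted p = 3.2e-08) and 4.93 (SE 0.30, adjusted p = 9.6e-12), the last 30.5-fold higher.

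Il12rb2, which with Il12rb1 completes the IL-12 receptor of Th1 cells, did not follow its partner. WT mice 1, 3 and 4 had 53.0, 62.7 and 102 CPM at 0 h, 31.0, 53.3 and 97.2 CPM at 3 h, 40.1, 57.2 and 101 CPM at 6 h, and 15.1, 31.2 and 28.7 CPM at 24 h. Mouse 4 was the highest of the 3 up to 6 h, and the times up to 6 h overlapped. Against 0 h the log2 fold change was -0.26 (SE 0.36, adjusted p = 0.623) after 3 h, -0.14 (SE 0.36, adjusted p = 0.778) after 6 h and -1.54 (SE 0.37, adjusted p = 0.000868) after 24 h. Aim2-/- mice 1, 2 and 4 carried 80.5, 66.2 and 69.8 CPM at 0 h, 40.0, 53.9 and 41.1 CPM at 6 h, and 18.5, 27.6 and 33.5 CPM at 24 h, and these times did not overlap. The difference at 24 h was -1.44 (SE 0.37, adjusted p = 0.00156). At 6 h it was -0.68 (SE 0.36, adjusted p = 0.12). With mouse as a block the comparison at 6 h was called at -0.70, the step from 3 to 6 h at -0.52 and the step from 6 to 24 h at -0.77. None of these was called in the unblocked test with all 24 libraries, though fits without a low-count filter or on the compared libraries alone also called the comparison at 6 h and the step from 6 to 24 h. Il12rb2 shares 1519 of its 3794 exon bases with Serbp1 on the opposite strand. Serbp1 rose from 413 ± 23.3 to 1633 ± 104 CPM (SD, n = 3) in WT cells over 24 h. Whether the counting used the strand is not stated, so reads of the shared bases may have been given to either gene or left out.

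Il23r, the IL-23-specific chain, had the lowest counts of the group, with 5 to 61 per library. In WT mice 1, 3 and 4 it stood at 2.25, 1.45 and 2.18 CPM at 0 h and at 0.557, 0.462 and 0.410 CPM at 24 h, without overlap. The log2 fold change at 24 h was -2.03 (SE 0.48, adjusted p = 0.000791) in WT and -1.59 (SE 0.46, adjusted p = 0.00445) in Aim2-/- cells, where the level went from 2.95, 1.67 and 1.57 CPM to 1.08, 0.252 and 0.718 CPM in mice 1, 2 and 4. At 3 and 6 h the estimates lay between -0.60 and -0.27 with standard errors of 0.43 or 0.44, and none was called. The step from 6 to 24 h in Aim2-/- cells, -0.99 (SE 0.47), was not called. It was called with mouse as a block at -1.01, and also without the 6 h library of mouse 2 or the 24 h library of mouse 1.

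The IL-18 and IL-33 receptor genes moved most between 6 and 24 h, the longest of the steps. Ifngr1, Ifnar2, Il12rb2 and Il23r also moved most there in both genotypes, as did Il12rb1, which rose, in Aim2-/- cells. With mouse as a block the WT step was -2.37 for Ifngr1, -0.77 for Ifnar2, -1.35 for Il12rb2 and -1.73 for Il23r. In the same fit it was -3.04 for Il18r1, -2.28 for Il18rap and -2.37 for Il1rl1. Il18r1, the ligand-binding chain for IL-18, stood at 176, 125 and 147 CPM in WT mice 1, 3 and 4 at 0 h, at 109, 99.7 and 151 CPM at 3 h, at 80.4, 63.3 and 87.3 CPM at 6 h, and at 9.62, 7.34 and 11.3 CPM at 24 h. The 0 and 3 h libraries overlapped, and the later times lay below them. Against 0 h the log2 fold change was -0.32 (SE 0.21, adjusted p = 0.259) after 3 h, called at -0.33 only with mouse as a block, -0.96 (SE 0.21, adjusted p = 0.000579) after 6 h and -3.99 (SE 0.24, adjusted p = 5.38e-12) after 24 h. At 24 h it was 15.9-fold lower, the largest fall among the 10 genes in WT cells. Aim2-/- mice 1, 2 and 4 carried 164, 154 and 147 CPM at 0 h, 156, 132 and 135 CPM at 3 h, 96.0, 83.7 and 73.6 CPM at 6 h, and 26.9, 13.8 and 14.0 CPM at 24 h. The changes were -0.14 (SE 0.21, adjusted p = 0.662), -0.88 (SE 0.21, adjusted p = 0.00133) and -3.09 (SE 0.23, adjusted p = 1.46e-10).

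Il18rap, the signalling chain of the IL-18 receptor, showed no called change at 3 h. WT mice 1, 3 and 4 had 69.7, 59.1 and 67.7 CPM at 0 h, 69.2, 58.0 and 77.5 CPM at 3 h, 57.8, 39.3 and 49.2 CPM at 6 h, and 12.1, 7.70 and 10.4 CPM at 24 h. The 24 h libraries lay far below the others. The log2 fold change was 0.06 (SE 0.28, adjusted p = 0.905) after 3 h, -0.43 (SE 0.28, adjusted p = 0.226) after 6 h and -2.70 (SE 0.31, adjusted p = 1.15e-07) after 24 h. With mouse as a block the comparison at 6 h (-0.44) and the step from 3 to 6 h (-0.49) were called in WT, and the step from 3 to 6 h (-0.65) in Aim2-/- cells. In Aim2-/- cells Il18rap was at 0.32 (SE 0.28, adjusted p = 0.438) after 3 h, -0.32 (SE 0.28, adjusted p = 0.363) after 6 h and -2.21 (SE 0.30, adjusted p = 1.25e-06) after 24 h.

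Il1rl1, the IL-33 receptor, followed the same course at a lower level. WT mice 1, 3 and 4 had 49.2, 29.5 and 34.7 CPM at 0 h, 38.5, 29.6 and 42.2 CPM at 3 h, 31.5, 19.0 and 26.9 CPM at 6 h, and 5.52, 3.44 and 5.95 CPM at 24 h. Only the 24 h libraries stood apart from all others. Against 0 h the log2 fold change was -0.04 (SE 0.38, adjusted p = 0.954) after 3 h, -0.55 (SE 0.38, adjusted p = 0.24) after 6 h and -2.93 (SE 0.43, adjusted p = 3.14e-06) after 24 h. For Aim2-/- cells it was -0.25 (SE 0.37, adjusted p = 0.668), -0.86 (SE 0.38, adjusted p = 0.0624) and -2.25 (SE 0.40, adjusted p = 3.51e-05). With mouse as a block the comparison at 6 h was called in WT (-0.56) and in Aim2-/- cells (-0.89), as was the step from 3 to 6 h (-0.53 in WT and -0.57 in Aim2-/- cells).

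As Il12rb1 rose and its relatives fell, the order of the genes changed. At 24 h Il12rb1 had the highest mean per kb, 120 CPM per kb in WT and 104 in Aim2-/- cells, followed by Ifngr1 with 41.6 and 61.0, Ifnar1 with 18.4 and 19.8, and Ifnar2 with 10.2 and 12.1. In WT cells the libraries of Ifnar2, Il12rb2 and Ifngr2 overlapped in turn at 24 h, and those of Il18r1 overlapped those of Il18rap. Il1rl1 and Il23r closed the order with 0.937 and 0.192 CPM per kb in WT, without overlap.

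The balance between the chains of a receptor shifted with these changes. The ratio of Il12rb2 to Il12rb1, in CPM per kb within a library, went from 9.12 ± 4.42 (SD, n = 3) in WT at 0 h to 2.88 ± 2.39 at 3 h, 0.618 ± 0.290 at 6 h and 0.0687 ± 0.0217 at 24 h. In Aim2-/- cells it was 7.15 ± 0.721, 2.04 ± 0.720, 0.550 ± 0.0683 and 0.0843 ± 0.0168. On this length scale the ratio was 4.79 or more in every library at 0 h and 0.944 or less in every library from 6 h on. How reads of the exon bases that Il12rb2 shares with Serbp1 were counted may affect its values. The ratio of Ifnar1 to Ifnar2 went from 6.02 ± 0.236 to 1.99 ± 0.141 within 3 h in WT, and in Aim2-/- cells from 4.89 ± 0.368 to 2.13 ± 0.0289, with group means of at most 1.96 at 6 and 24 h. The ratio of Il18r1 to Il18rap went from 2.67 ± 0.261 at 0 h to 1.11 ± 0.168 at 24 h in WT, while Aim2-/- cells went from 2.06 ± 0.465 to 1.14 ± 0.180.

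**Figure D3:**
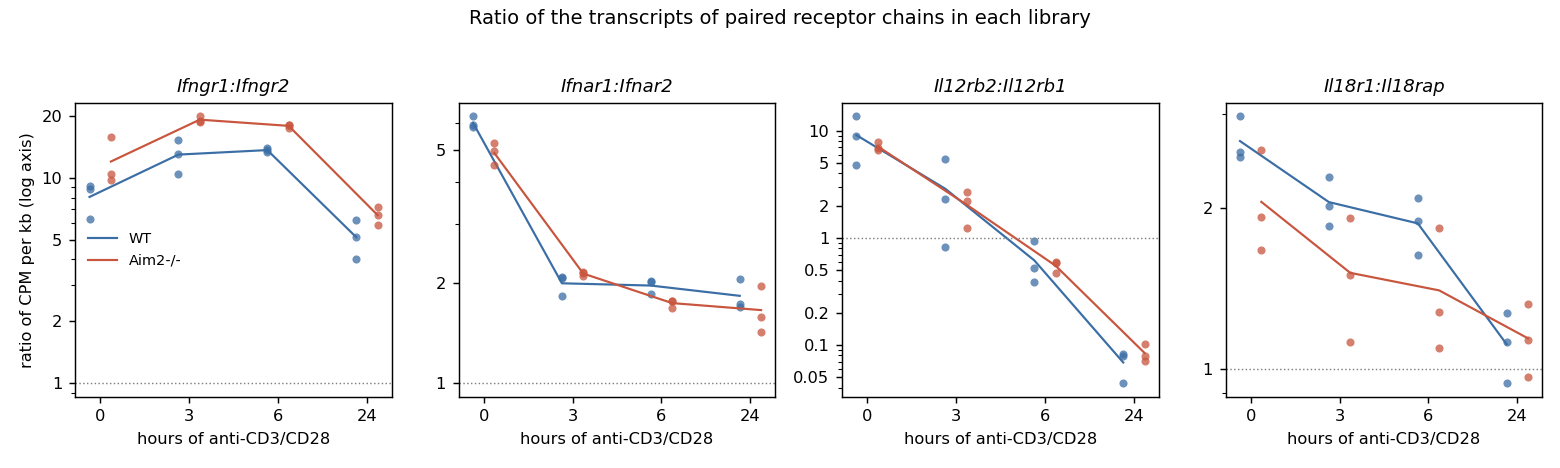
Ratio of CPM per kb between the paired chains of 4 receptors in each library (log axis, scaled to each panel) against hours of anti-CD3/CD28, with lines through the group means. The dotted line marks equal levels. The Il12rb2 to Il12rb1 ratio crosses it between 0 and 6 h in both genotypes, and the Ifnar1 to Ifnar2 ratio makes its drop by 3 h.

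The ratio of Ifngr1 to Ifngr2 took another course. In WT it was 8.05 ± 1.54, 12.9 ± 2.42, 13.6 ± 0.318 and 5.13 ± 1.08 at 0, 3, 6 and 24 h (SD, n = 3). For Aim2-/- cells it was 11.96 ± 3.31, 19.1 ± 0.612, 17.8 ± 0.342 and 6.57 ± 0.663. The 3 Aim2-/- libraries lay above the 3 WT libraries at 0, 3 and 6 h, and the groups overlapped at 24 h. The exact two-sided permutation test gave p = 0.1 at each of these 3 times, which is the smallest value 3 against 3 mice allow, and 0.333 after adjustment over 20 tests of ratios. Among the other ratios the genotypes were also apart for Ifnar1 to Ifnar2 at 0, 3 and 6 h, with the same p, lower in Aim2-/- cells at 0 and 6 h and higher at 3 h. Ratios depend on the transcript lengths that were assumed, and with the summed exons of a gene in place of its longest transcript the 0 h WT ratio was 6.07 for Ifngr1 to Ifngr2 and 10.3 for Il12rb2 to Il12rb1.

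Genes around the receptors were described by lists, whose counts stand beside the shares of all genes called, which at 3 h were 16.2% higher and 16.4% lower in WT and 16.1% and 14.6% in Aim2-/- cells. At 24 h these shares were 36.6% higher and 34.8% lower in WT and 36.8% and 33.5% in Aim2-/- cells. Of the 7 ligand genes only Ifng, Il12a and Il18 passed the filter, while Ifnb1, Il12b, Il23a and Il33 did not. Ifng rose in WT by 1.80 (SE 0.46, adjusted p = 0.00412) after 3 h and 2.78 (SE 0.46, adjusted p = 1.75e-05) after 24 h on the log2 scale, and in Aim2-/- cells by 1.88 (SE 0.44) and 3.56 (SE 0.47). Il12a, which encodes the p35 subunit of IL-12, rose at 24 h by 3.10 (SE 0.62) in WT and 3.29 (SE 0.59) in Aim2-/- cells, reaching 4.54 ± 2.2 and 8.81 ± 5.0 CPM (SD, n = 3). Il18 was the ligand called lower at 24 h in both genotypes and is named here after its values were seen. Its mean was 0.959 CPM or less in every group.

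Of the 8 kinases, STATs and Irf9, 5 were called higher and 1 lower at 3 h in WT, beside 16.2% and 16.4% of all genes. At 24 h 1 was called higher and 6 lower in WT, beside 36.6% and 34.8%, with a median log2 fold change of -1.14. In Aim2-/- cells 3 were called higher and 2 lower at 3 h, beside 16.1% and 14.6% of all genes. At 24 h 0 were called higher and 6 lower there, beside 36.8% and 33.5%, with a median of -1.38. Jak1, the kinase that all these interferon receptors share, fell by 2.04 (SE 0.15) in WT and 1.96 (SE 0.15) in Aim2-/- cells at 24 h. Stat4, which carries the IL-12 signal, fell by 1.78 (SE 0.12) in WT and 1.88 (SE 0.12) in Aim2-/- cells, and Stat3 by 1.26 (SE 0.10) and 1.77 (SE 0.10). Among the 6 adaptors of the IL-18 and IL-33 receptors, 2 were called higher and 2 lower at 24 h in each genotype, shares near those of all genes. Myd88 rose by 1.00 (SE 0.09) in WT and 0.83 (SE 0.09) in Aim2-/- cells, and Irak2 fell by 0.89 (SE 0.14) and 1.22 (SE 0.14).

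Of the 7 negative regulators of these pathways, 4 were called higher and 0 lower at 3 h in WT and 5 higher and 1 lower at 24 h, with medians of 0.88 and 0.52, beside 16.2% and 36.6% of all genes called higher. Aim2-/- cells had 6 called higher and 1 lower at 24 h, with a median of 0.72. From 6 to 24 h, in contrast, 3 were called higher and 4 lower in WT and 2 higher and 4 lower in Aim2-/- cells, where Socs1, Usp18, Socs3 and Il18bp were the 4 that fell in each genotype. Over this step 29.6% of all genes were called higher and 28.0% lower in WT, and 27.4% and 27.0% in Aim2-/- cells. Socs1, an inhibitor of JAK kinases downstream of IFN-γ, rose by 4.27 (SE 0.26) after 3 h and 3.09 (SE 0.25) after 24 h in WT, and by 3.10 (SE 0.24) and 2.57 (SE 0.24) in Aim2-/- cells. Usp18, a brake on type I interferon signalling that binds Ifnar2, rose by 3.30 (SE 0.33) after 3 h in WT and 2.58 (SE 0.32) in Aim2-/- cells. Ptpn6, which encodes the phosphatase SHP-1, rose by 2.65 (SE 0.12) and 2.13 (SE 0.11) after 24 h. Socs3 was the member called lower at 24 h with a log2 fold change of -2.69 (SE 0.18) in WT and -2.47 (SE 0.17) in Aim2-/- cells.

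Of the 9 related receptor chains, 8 were tested, and all 8 were called lower at 24 h in WT (median -1.57) and 7 of them in Aim2-/- cells (median -1.15), with none higher, beside 34.8% and 33.5% of all genes called lower. Il6st, the gp130 chain, fell by 2.01 (SE 0.19) in WT and 1.91 (SE 0.19) in Aim2-/- cells, and the decoy receptor gene Il1r2 by 2.61 (SE 0.71) and 2.24 (SE 0.68). Of the 7 transcription factors of T helper subsets, 2 were called higher and 2 lower at 24 h in WT (median -0.19), and 2 higher and 3 lower in Aim2-/- cells (median -0.12), shares near those of all genes. Tbx21, which encodes the Th1 factor T-bet, rose by 3.47 (SE 0.23) in WT and 2.28 (SE 0.22) in Aim2-/- cells, and Gata3, the Th2 factor, by 0.54 (SE 0.12) and 0.32 (SE 0.11).

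None of the 10 receptor genes was called between Aim2-/- and WT cells at any time. Of all genes tested, 5.23%, 0.294%, 15.8% and 0.666% were called at 0, 3, 6 and 24 h. At an unadjusted p under 0.05, 3, 3, 2 and 5 of the 10 genes passed at these times, and 3649, 2350, 5225 and 3134 of all genes did. At 24 h DESeq2 called 4 of the 10, namely Ifngr1, Il18r1, Il18rap and Il1rl1, all higher in Aim2-/- cells. Without the 24 h library of Aim2-/- mouse 2 the same number was called, without that mouse altogether 3, and with any other library or mouse left out 0 or 1. The number was also 0 without the mouse labelled WT 1 at all 4 times. The shares above are those of the edgeR fit with all libraries. The share of all genes called in DESeq2 or with a library left out is not given here.

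**Figure D4:**
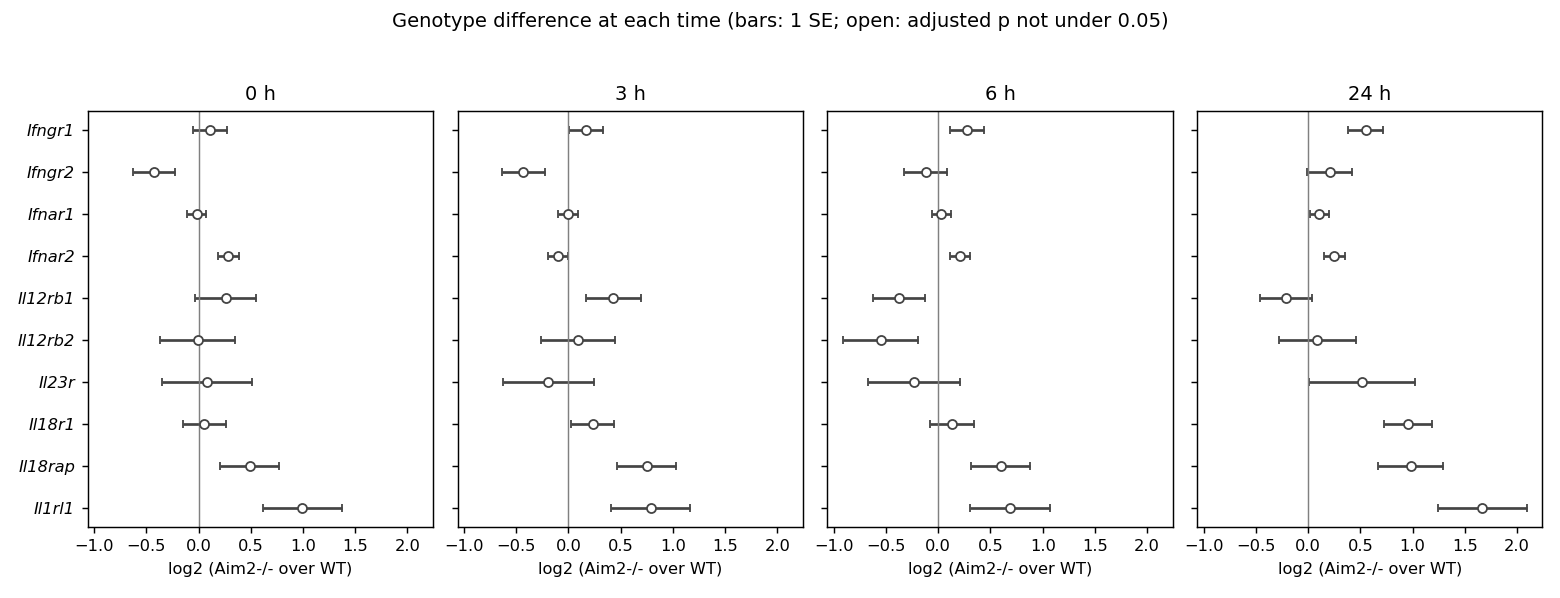
Log2 difference between Aim2-/- and WT cells for each receptor gene at 0, 3, 6 and 24 h, with bars of 1 standard error (edgeR). All points are open because none was called. Il1rl1 and Il18rap lie to the right of 0 at all 4 times, and the difference of Il1rl1 reaches 1.67 at 24 h.

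The IL-33 and IL-18 receptor genes had the largest estimates. Il1rl1 stood at 102, 60.1 and 63.5 CPM in Aim2-/- mice 1, 2 and 4 at 0 h and at 49.2, 29.5 and 34.7 CPM in WT mice 1, 3 and 4. At 24 h it stood at 26.3, 8.96 and 12.1 CPM in Aim2-/- and at 5.52, 3.44 and 5.95 CPM in WT mice. The groups did not overlap at either time, and Aim2-/- mouse 1 was the highest library at each of the 4 times. The log2 difference, Aim2-/- minus WT, was 0.99 without stimulation (SE 0.38, adjusted p = 0.117), 0.79 after 3 h (SE 0.38, adjusted p = 0.325), 0.69 after 6 h (SE 0.38, adjusted p = 0.206) and 1.67 after 24 h (SE 0.43, adjusted p = 0.063). At 0 h it was called in limma-voom with mouse as a random block, at 0.98. Without the mouse labelled WT 1 it was 1.23 at 0 h and 1.75 at 24 h. Without Aim2-/- mouse 1 the values were 0.71, 0.37, 0.31 and 1.08 at the 4 times, so the estimates at 3, 6 and 24 h were over 1.5 times smaller without this mouse.

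Il18rap was also higher in the Aim2-/- libraries. At 0 h it stood at 115, 70.5 and 90.03 CPM in Aim2-/- mice 1, 2 and 4 against 69.7, 59.1 and 67.7 CPM in WT mice, and at 3 h at 122, 81.0 and 141 CPM against 69.2, 58.0 and 77.5 CPM. At 24 h it stood at 32.7, 12.3 and 14.6 CPM against 12.1, 7.70 and 10.4 CPM. The groups were apart at these 3 times, at 0 and 24 h by a narrow gap. The log2 difference was 0.49 without stimulation (SE 0.28, adjusted p = 0.298), 0.75 after 3 h (SE 0.28, adjusted p = 0.227), 0.60 after 6 h (SE 0.28, adjusted p = 0.145) and 0.98 after 24 h (SE 0.31, adjusted p = 0.108). Without Aim2-/- mouse 1 the 4 values were 0.30, 0.70, 0.45 and 0.42, and without the mouse labelled WT 1 they were 0.54, 0.76, 0.73 and 1.13, so the estimates at 0 and 24 h were over 1.5 times smaller without Aim2-/- mouse 1.

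Il18r1 differed in its estimate at 24 h alone. There it stood at 26.9, 13.8 and 14.0 CPM in Aim2-/- mice 1, 2 and 4 and at 9.62, 7.34 and 11.3 CPM in WT mice 1, 3 and 4, without overlap. The log2 difference was 0.96 (SE 0.23, adjusted p = 0.0575) after 24 h and 0.05 (SE 0.21), 0.23 (SE 0.21) and 0.13 (SE 0.21) at 0, 3 and 6 h. It was 0.97 at 24 h without the mouse labelled WT 1 and 0.57 without Aim2-/- mouse 1. Ifngr1 at 24 h was 0.55 (SE 0.17, adjusted p = 0.0962), with the groups apart at 137, 123 and 127 CPM against 77.3, 71.4 and 115 CPM.

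The other genes gave estimates between -0.55 and 0.51 at all times. Ifngr2 was at -0.43 (SE 0.20), -0.43 (SE 0.21), -0.12 (SE 0.21) and 0.21 (SE 0.21) at the 4 times in turn. Ifnar1 lay within 0.11 of 0 at all 4 times with standard errors of 0.09, the narrowest of the 10. Il12rb1 was at 0.26 (SE 0.29), 0.43 (SE 0.26), -0.37 (SE 0.25) and -0.21 (SE 0.25), and Il12rb2 at -0.01 (SE 0.36), 0.09 (SE 0.36), -0.55 (SE 0.36) and 0.09 (SE 0.37). Without the mouse labelled WT 1, Il12rb1 was at 0.49, 0.78, -0.40 and -0.24 at the 4 times, Il12rb2 at -0.19, -0.23, -0.81 and -0.18, and Ifngr2 at -0.60, -0.61, -0.28 and 0.12. Il12rb1 at 0 and 3 h was thus over 1.5 times larger, and Il12rb2 at 3 and 24 h changed sign. The same fit gave Ifnar1 between -0.08 and 0.08, Ifnar2 at 0.24, -0.16, 0.21 and 0.25, and Ifngr1 at 0.00, 0.09, 0.13 and 0.47. None was called in it either. Without Aim2-/- mouse 1, Ifngr2 at 0 h was at -0.21, and Il12rb1 at 0.11 there and 0.68 at 3 h. A value that was not called is not shown to be equal between the genotypes.

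Markers of other cells moved with the genotype as well. The 7 basophil and mast cell markers summed to between 15.0 and 17.1 CPM in WT and between 66.6 and 137 CPM in Aim2-/- libraries at 0 h, and to between 11.04 and 21.6 CPM and between 59.2 and 226 CPM at 24 h. All 7 had a higher mean in Aim2-/- cells at each time, and 6 of 7 were called at 0, 6 and 24 h and 3 of 7 at 3 h. Of all genes tested, 5.23%, 0.294%, 15.8% and 0.666% were called in either direction at 0, 3, 6 and 24 h. Of these markers only Fcer1a lay at or under 3 counts in all WT libraries of 0 h. Aim2-/- mouse 1 had the highest sum at each time, as it had for Il1rl1. At 0 h the 7 myeloid markers summed to between 31.8 and 53.3 CPM in WT and between 102 and 335 CPM in Aim2-/- libraries, with 3 of 7 called. The 6 neutrophil markers summed to between 24.3 and 27.5 CPM and between 102 and 252 CPM, with 2 of 5 tested called and Ly6g at or under 3 counts in both genotypes. The 7 B cell markers summed to between 8.41 and 10.4 CPM and between 16.3 and 42.5 CPM, with 2 of 6 tested called and Ms4a1 and Ebf1 at or under 3 counts in WT. The 6 NK cell markers overlapped, with between 23.7 and 39.2 CPM in WT and between 28.2 and 59.2 CPM in Aim2-/- libraries, and so did the 6 erythroid markers, with between 7.70 and 71.8 CPM and between 21.1 and 336 CPM, none of them called. The 5 regulatory T cell markers, which include Foxp3, summed to between 590 and 929 CPM in WT and between 918 and 1121 CPM in Aim2-/- libraries, none called and all 5 with a higher mean in Aim2-/- cells. T cell state markers differed as well. The 5 markers of resting T cells summed to between 4700 and 5843 CPM in WT and between 3131 and 4544 CPM in Aim2-/- libraries at 0 h, with none called. The 5 activation markers summed to between 2412 and 2572 CPM in WT and between 1640 and 2016 CPM in Aim2-/- libraries at 6 h. Of these markers 2 of 5 were called lower in Aim2-/- cells, beside 15.8% of all genes called in either direction. The part of these cells and states in the estimates for Il1rl1, Il18rap and Il18r1 was not tested.

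**Figure D5:**
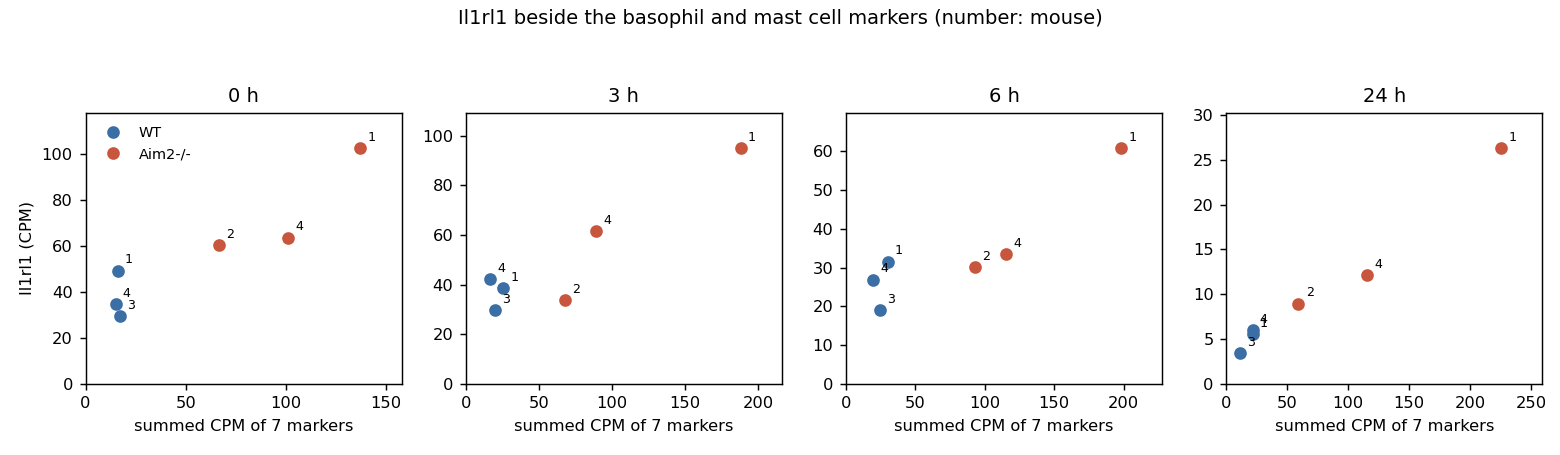
Level of Il1rl1 (CPM) against the summed CPM of 7 basophil and mast cell markers in each library at 0, 3, 6 and 24 h, with the mouse number beside each point and each panel on its own axes. The 3 Aim2-/- libraries lie to the right of the 3 WT libraries in every panel, and Aim2-/- mouse 1 is highest on both axes.

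The response to stimulation itself was compared between the genotypes by interaction tests, Aim2-/- minus WT in the change from 0 h. None of the 10 genes was called at 3, 6 or 24 h, beside 0.0%, 0.0261% and 0.0% of all genes. At an unadjusted p under 0.05, 1, 0 and 2 of the 10 passed, and 653, 2019 and 1825 of all genes. The largest estimate was that of Il18r1 at 24 h, 0.90 (SE 0.31, adjusted p = 0.248), which stands for the smaller fall in Aim2-/- cells. With mouse as a block it was 0.88 and was called, and without Aim2-/- mouse 1 it was 0.55, which is over 1.5 times smaller. Leaving out only the 24 h library of that mouse gave 0.51, and leaving out the mouse labelled WT 1 gave 0.78. Ifngr2 was at 0.63 (SE 0.29, adjusted p = 0.404) and Il1rl1 at 0.67 (SE 0.56, adjusted p = 0.672) after 24 h. The value of Il1rl1 ranged from 0.085 without the 24 h library of Aim2-/- mouse 1 to 0.96 without its 0 h library, and was 0.52 without the mouse labelled WT 1. Ifngr2 was at 0.72 without the mouse labelled WT 1 and at 0.44 without Aim2-/- mouse 1. At 3 h the lowest estimate was that of Ifnar2, -0.38 (SE 0.14), with an adjusted p of 1.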

How the data were processed

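RNA of splenic CD4+ T cells was sequenced in 24 libraries, 4 times for each of 6 mice. The deposited values are whole-number counts per Ensembl gene, which the authors made by aligning reads with STAR to GRCm38; the library kit keeps strand, but the strand used in counting is not given in the sources used here. The study's methods name negative immunomagnetic selection for such cells. Of 54446 identifiers, 54409 matched GENCODE vM21 names. Counts were fitted in edgeR 4.0.16 (R 4.3.3) with TMM scaling, genes kept by filterByExpr with a minimum count of 10, and 1 mean for each of the 8 groups. The quasi-likelihood F test was two-sided, with Benjamini-Hochberg adjustment over the 15325 genes tested in each comparison. The biological coefficient of variation was 18.6%. p-values rest on the spread between the 3 mice within a group, estimated together over the 8 groups of both genotypes. Libraries of a mouse are treated as separate, in the tests between genotypes as well as within them.

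Libraries of the same mouse deviated together from their group means (correlations of 0.139 to 0.567 over 36 pairs), so mice pair the times, and blocked values are given where they change a call. The pairing comes from the mouse numbers in the labels. Ratios were tested by exact permutation. Alternatives in DESeq2 1.42.0, limma 3.58.1, other scalings, other filters, blocks and left-out libraries are given in the closing section. The receptor genes, pathway lists and markers were chosen with earlier results of these data known. All 10 receptor genes were named, and up to 4 genes of a pathway list with the largest change at 24 h in WT among those called.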

Additional observations from a re-analysis of the deposited data

How the results depend on the processing

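Within a genotype no call against 0 h at 6 or 24 h was lost under any alternative. Of 3320 values of single genes under alternatives, 3217 kept their call or lack of it, 25 lost a call, all with a library or mouse left out, and 78 gained one. No called value changed sign, and 157 values called in neither fit did. From 3 to 6 h the number of receptor genes called lay between 3 and 6 in WT and between 2 and 4 in Aim2-/- cells with a library or mouse left out. In Aim2-/- cells it was 7 without a filter on low counts and 8 with mouse as a replicate block, which also gave 8 in WT. Between the genotypes, where 0 genes were called, a fit without a filter on low counts called 2, 2, 2 and 4 at 0, 3, 6 and 24 h. DESeq2 called 4 at 24 h. The block of mouse in voom called 1 at 0 h. The replicate number as a block across genotypes likewise called 2, 2, 2 and 4, although the numbers are shared by name only: libraries of the other genotype with the same number correlated between -0.165 and 0.300 in their deviations. With a library or mouse left out the number lay between 0 and 1 at 0, 3 and 6 h and between 0 and 4 at 24 h. The interaction at 24 h gave 1 call without a filter and 1 with mouse as a replicate block. The mouse block changed no call other than those given with the results. In each of these the cause was not tested. The shares of all genes called under these alternatives are not given here.

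With library totals in place of TMM the median gene moved to 0.12 in WT and 0.13 in Aim2-/- cells at 3 h, from 0.02, and to 0.20 in Aim2-/- cells at 6 h, from 0.08. The share of all calls that were higher at 3 h was 49.6% with TMM and 64.9% with library totals in WT, and 52.4% and 69.3% in Aim2-/- cells. Of 80 group means in CPM, 75 moved by less than 1 SD, and of 40 chain ratios 27 moved by more than 1 SD with summed exon length. Il23r, with 5 to 61 counts per library, is the gene most limited by depth.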

Other observations

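Genes whose level followed the receptor genes most closely were listed by Pearson r of log2 CPM over the 24 libraries, as a description in which all points share the strong effect of time. The nearest genes to Il12rb1 were Hk2 (r = 0.992), which encodes a hexokinase, Ppif (0.992) and Nudt5 (0.991). Those nearest to Ifngr1 included Fosl2 (0.991) and Txnip (0.989), and the nearest to Ifnar1 was Nr1d2 (0.994). Il18r1 was closest to Abcb1a (0.991) and Rora (0.990), which encodes a nuclear receptor. Il18rap was closest to the chemokine receptor gene Ccr2 (0.985), and Il1rl1 to Cd80 (0.979). The nearest gene to Il12rb2 was Arid5a, at 0.887.

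Pearson r of the deviations of the 24 libraries from their group means was, for the 3 clustered genes on chromosome 1, 0.876 for Il18rap with Il1rl1, 0.806 for Il18r1 with Il1rl1 and 0.736 for Il18r1 with Il18rap. Pairs on different chromosomes reached similar values, such as 0.725 for Il18rap with Il23r and 0.721 for Ifngr1 with Ifnar2. Il12rb1 deviated against Ifnar2 (-0.535) and Ifnar1 (-0.505). Libraries of a mouse are not independent, so these values carry no test.

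Among the transcription factors, 4 of 7 were called higher in Aim2-/- than in WT cells at 0 h, beside 5.23% of all genes called in either direction, 0 at 3 h beside 0.294%, 2 (Gata3 and Hlx) at 6 h beside 15.8%, and 0 at 24 h beside 0.666%. At 0 h Eomes differed by 1.52 (SE 0.28), Tbx21 by 0.96 (SE 0.22), Gata3 by 0.49 (SE 0.12) and Hlx by 1.85 (SE 0.51) on the log2 scale. Without the mouse labelled WT 1 these values were 1.90, 1.14, 0.53 and 2.13, and 3 were called, without Hlx. The count at 0 h was 4 without Aim2-/- mouse 2 but 2 without Aim2-/- mouse 1, 1 without Aim2-/- mouse 4, and 0 without WT mouse 3 or WT mouse 4. With only the 0 h library left out, it was 1 without Aim2-/- mouse 1, 2 without Aim2-/- mouse 4, 0 without WT mouse 3 and 1 without WT mouse 4.

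Among the ligands Ifng was not called at 24 h, with 95.6 ± 29.5 CPM in WT and 316 ± 135 CPM in Aim2-/- cells (SD, n = 3, log2 difference 1.73, SE 0.43, adjusted p = 0.0605, and 1.78 without the mouse labelled WT 1). Socs3 was the negative regulator called at 24 h, higher by 0.73 (SE 0.17, adjusted p = 0.0481) in Aim2-/- cells. It was 0.63 and not called without the mouse labelled WT 1, and it stayed called only without Aim2-/- mouse 2, its 24 h library or the 24 h library of WT mouse 4. The Aim2-/- libraries carried more markers of basophils, myeloid cells and neutrophils at 0 h, whose part in these differences was not tested.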
